A study of Mus musculus with 32 samples.

Results

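The genes described here handle cholesterol inside the cell, from its release in lysosomes to its storage as ester. They are 10 of the 56748 genes of the deposited count table, chosen by gene symbol: Lipa, Npc2, Npc1, Stard3, Gramd1a, Gramd1b, Gramd1c, Osbp, Soat1 and Scarb1. All 10 passed the filter on low counts, which kept 16984 genes. Poly(A) RNA had been sequenced from mouse primary white adipocytes, the fat-storing cells of subcutaneous adipose tissue, kept in DMEM F-12 with serum. The study asked how the transcription factors Nfe2l1 and Atf3 bear on the handling of cholesterol. The loaded groups were given cholesterol at 400 µM, carried by methyl-β-cyclodextrin (a ring of sugars that delivers sterol to membranes), for 6 h. Those groups were double silencing (siNfe2l1 with siAtf3), siAtf3, siNfe2l1 and a scrambled siRNA (scramble, with the genotype given as WT), and the same 4 siRNA conditions were also kept under control treatment. Each of the 8 groups held 4 libraries, called biological replicates in the labels, which do not say more on whether they came from separate animals or cultures. Strain, sex and age are not given in the sources used here. No label says whether the control treatment held the carrier, so cholesterol and carrier cannot be told apart here.

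As background, cholesteryl ester that enters a cell with lipoproteins is split in the lysosome, and the free sterol leaves through a pair of Niemann-Pick proteins. Sterol that exceeds what the plasma membrane can hold is carried to the endoplasmic reticulum (ER) at contact sites, where an acyltransferase turns it into ester for lipid droplets. Adipocytes hold a large pool of free cholesterol at the surface of their lipid droplet and in their plasma membrane.

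Total counts ran from 23457384 to 33828418 per library. Each siRNA alone lowered its target. Nfe2l1 averaged 73.8 CPM with siNfe2l1 and 486.8 CPM with scramble under control treatment, and 120.0 CPM with siNfe2l1 and 814.1 CPM with scramble in cholesterol (CPM, the count scaled to a common sequencing depth, with library sizes scaled by the TMM method). Atf3 averaged 10.1 CPM with siAtf3 and 26.8 CPM with scramble under control treatment, and 40.9 CPM with siAtf3 and 397.8 CPM with scramble in cholesterol. With double silencing Atf3 averaged 15.3 CPM under control treatment, a log2 change of -0.80 against scramble (edgeR, adjusted p = 0.0468). That call held in only 5 of 16 alternative settings (described with the processing). In cholesterol Atf3 averaged 50.8 CPM with double silencing, a log2 change of -2.97. On the first principal component, libraries 1 to 4 of siNfe2l1 with cholesterol lay at 40.48, 34.25, 27.73 and 24.04. These values form a gradient without a clear split, libraries 3 and 4 being lowest. The chi-square per degree of freedom between pairs of that group ran from 10.6 (libraries 2 and 3) to 44.7 (libraries 1 and 4). By that measure library 1 of scramble with cholesterol stood apart from its group, at 29.5 to 35.3 with the other 3. Those 3 had 4.66 to 10.7 among themselves. Library 1 of siAtf3 with cholesterol stood apart too, at 13.9 to 17.1 against 3.34 to 4.23. Markers of 4 cell types were detected in every group. The summed level of 11 adipocyte markers was 14190 to 17640 CPM in cholesterol and 10660 to 12180 CPM under control treatment. That of 12 fibroblast markers was 4062 to 9811 CPM in cholesterol and 16920 to 29120 CPM under control treatment, and that of 8 endothelial markers was 308.2 to 583.5 CPM in cholesterol and 544 to 719.7 CPM under control treatment. In bulk RNA, fewer cells of a type and less of an mRNA per cell cannot be told apart.

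Set per kilobase of the annotated gene length, the 10 genes covered a wide range of levels. Npc2, a small lysosomal protein that binds free sterol, was highest at 269 CPM per kb averaged over the 8 groups. Lipa, Osbp, Scarb1 and Gramd1a followed at 33.4, 30.2, 27.5 and 18.7 CPM per kb. Stard3, Soat1, Npc1 and Gramd1b lay between 6.55 and 9.27 CPM per kb. Gramd1c stood at 0.0878 CPM per kb and rested on 2 to 24 counts per library, whereas every library held at least 607 counts of each other gene. Gramd1b varied most between groups, its highest group mean being 4.87 times its lowest, and Osbp varied least at 1.19 times.

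**Figure D1:**
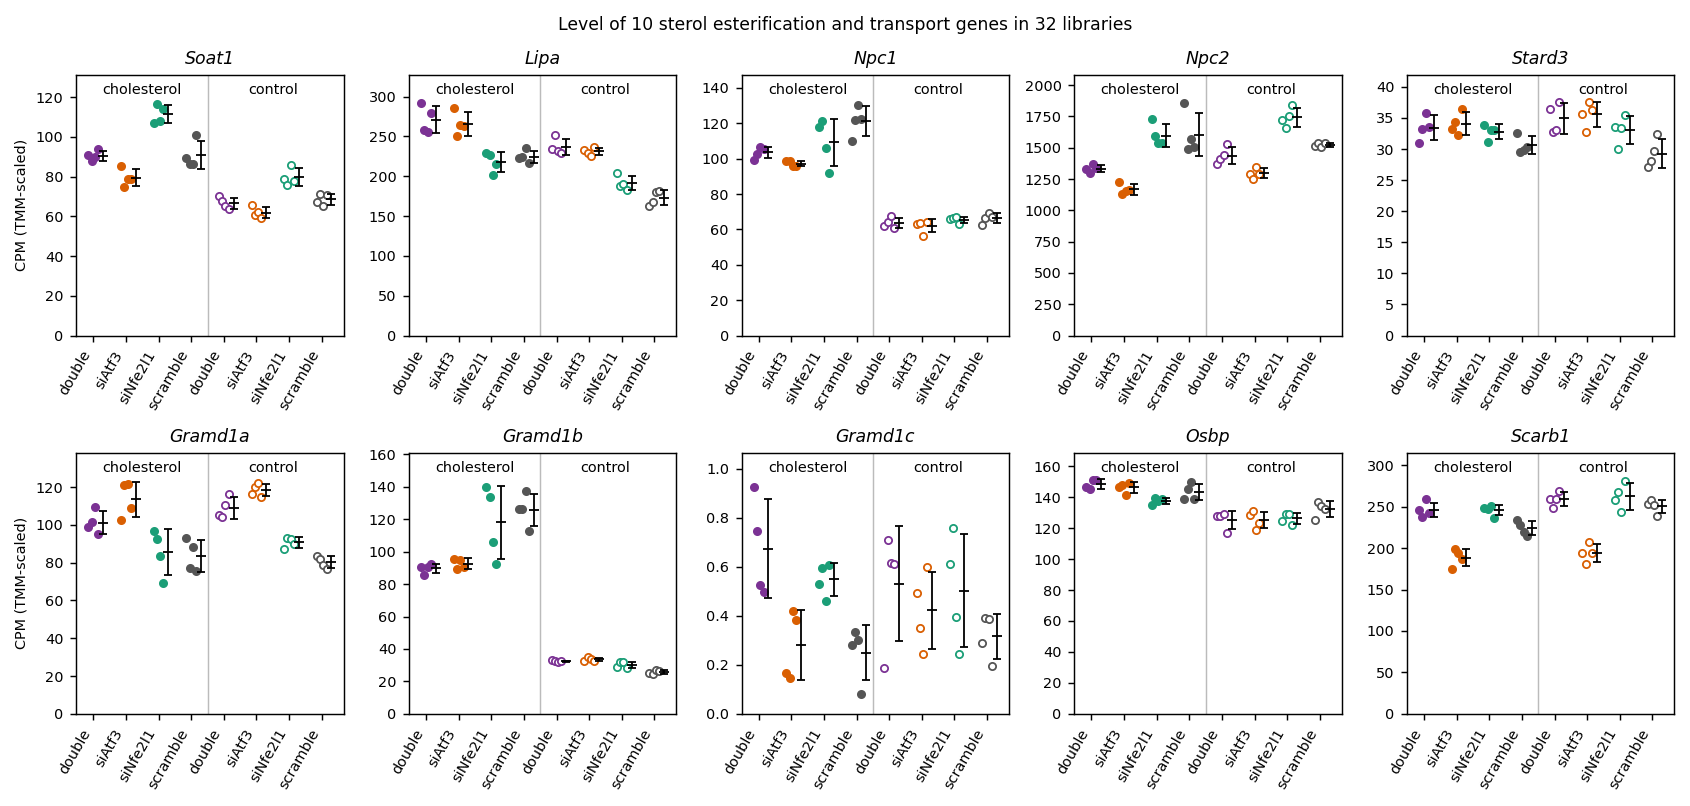
Level of each gene in CPM (TMM-scaled, linear axis from 0) in all 32 libraries, with cholesterol groups (filled) left of control groups (open) and double silencing, siAtf3, siNfe2l1 and scramble from left to right. Points are libraries, and the horizontal mark with its bar is the mean ± SD of 4 libraries. Gramd1b lies above 85 CPM in every cholesterol library and below 36 CPM in every control library.

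Promoter windows of 300 bases that span the annotated start were taken from RefSeq (GRCm38.p6) and matched 7 of the 10 genes. No window was matched to Npc1, Gramd1b and Scarb1, which does not show that RefSeq lacks one for them. Their promoters were not searched. The windows of Soat1 (chr1:156474279-156474578, minus strand), Lipa (chr19:34527425-34527724, minus strand) and Osbp (chr19:11965594-11965893, plus strand) are shown because these 3 genes were called higher with cholesterol in all 4 siRNA conditions. For Osbp the calls with scramble and siNfe2l1 ended in part of the alternatives given below. That of Stard3 (chr11:98358118-98358417, plus strand) is shown as a gene of the same route that was not called in any of those 4 comparisons. Capitals mark matches to any of 6 short words searched on both strands.

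Soat1: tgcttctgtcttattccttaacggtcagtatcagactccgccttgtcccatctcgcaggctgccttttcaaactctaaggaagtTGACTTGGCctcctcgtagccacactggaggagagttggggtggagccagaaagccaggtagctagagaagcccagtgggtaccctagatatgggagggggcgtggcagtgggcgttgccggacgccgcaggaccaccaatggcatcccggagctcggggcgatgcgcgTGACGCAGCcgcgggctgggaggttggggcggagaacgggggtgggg
Lipa: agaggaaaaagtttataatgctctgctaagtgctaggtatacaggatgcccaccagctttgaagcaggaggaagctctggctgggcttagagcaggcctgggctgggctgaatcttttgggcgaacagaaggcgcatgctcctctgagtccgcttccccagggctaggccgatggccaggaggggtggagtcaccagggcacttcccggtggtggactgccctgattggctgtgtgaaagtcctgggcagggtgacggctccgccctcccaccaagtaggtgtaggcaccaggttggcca
Osbp: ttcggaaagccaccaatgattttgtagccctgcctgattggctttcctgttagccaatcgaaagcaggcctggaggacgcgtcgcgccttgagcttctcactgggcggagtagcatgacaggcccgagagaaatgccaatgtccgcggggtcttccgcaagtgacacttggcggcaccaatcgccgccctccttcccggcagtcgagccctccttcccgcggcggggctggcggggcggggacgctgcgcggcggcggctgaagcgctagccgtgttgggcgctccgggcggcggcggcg
Stard3: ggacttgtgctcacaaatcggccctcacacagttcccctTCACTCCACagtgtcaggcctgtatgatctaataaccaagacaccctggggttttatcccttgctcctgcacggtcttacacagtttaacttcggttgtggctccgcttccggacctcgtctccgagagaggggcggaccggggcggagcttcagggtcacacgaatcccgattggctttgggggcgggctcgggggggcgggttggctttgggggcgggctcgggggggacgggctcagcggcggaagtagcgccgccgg

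The words were the E-box CACGTG, the cyclic AMP response element TGACGTCA, the AP-1 site TGANTCA, the core of the antioxidant response element TGACNNNGC, one form of the sterol regulatory element (TCACNCCAC) and the DR4 element of nuclear receptors. TGACNNNGC stood at bases 85 to 93 and 254 to 262 of the Soat1 window, and 12.4% of 32851 RefSeq windows of this length hold it. TCACNCCAC stood at bases 40 to 48 of the Stard3 window, against a share of 1.24% of all windows. Gramd1c had several windows, of which the second held CACGTG and TGACNNNGC and the third CACGTG. None of the 6 words was in the windows of Lipa, Osbp, Npc2 and Gramd1a. The shares of all windows were 7.15% for the E-box, 1.79% for TGACGTCA, 7.81% for TGANTCA and 0.0152% for DR4. A match describes letters in a window and shows no binding.

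Cholesterol raised the same 5 of the 10 genes in each of the 4 siRNA conditions: Gramd1b, Npc1, Soat1, Lipa and Osbp (edgeR quasi-likelihood test, Benjamini-Hochberg adjusted p below 0.05 over all genes tested). In scramble cells Scarb1 fell as well, so that 6 of 10 were called, against 65.2% of all genes tested (32.9% higher and 32.3% lower). With siNfe2l1 5 rose and Npc2 fell, against 60.1% of all genes (31.1% higher and 29% lower). With siAtf3 5 rose and Npc2 fell, against 58.1% (29.4% higher and 28.6% lower). With double silencing 5 rose and 0 fell, against 58.7% (29.8% higher and 28.9% lower). In that last comparison 1 member, Npc2, was lower at an unadjusted p under 0.05, and DESeq2 called 1 lower and limma-voom 0. The share of the 10 genes called is near that of the whole table. The median log2 fold change of the 10 genes was 0.10 in scramble cells, 0.12 with siNfe2l1, 0.08 with siAtf3 and 0.22 with double silencing, beside medians of all genes between 0.0002 and 0.007.

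Among the plasma membrane to ER carriers, Gramd1b (also called Aster-B; ENSMUSG00000040111, GRCm39 chr9:40204529-40442679, minus strand) changed most. In scramble cells it stood at 126, 126, 138 and 113 CPM in cholesterol and at 25.2, 24.8, 27.0 and 26.3 CPM under control treatment. The loaded and control libraries were far apart, with no overlap, as they were in the other 3 siRNA conditions. The change was 2.28 ± 0.08 on the log2 scale (SE; adjusted p = 5.19e-22), or 4.87-fold. With siNfe2l1 the cholesterol libraries held 139.7, 134, 106 and 92.5 CPM and the control libraries 28.8, 31.7, 31.8 and 28.1 CPM. The spread in the loaded group was wide, and libraries 3 and 4, lowest of the group on the first principal component, were also lowest here. The change was 1.97 ± 0.08 with all libraries (adjusted p = 1.74e-20) and 2.18 ± 0.06 without those 2. With siAtf3, cholesterol libraries held 95.7, 89.5, 95.04 and 90.3 CPM and control libraries 32.7, 35.1, 33.8 and 32.7 CPM, a log2 change of 1.46 ± 0.08 (adjusted p = 3.79e-17). With double silencing they held 90.7, 85.6, 90.7 and 92.1 CPM and 33.0, 32.3, 32.02 and 32.4 CPM, a change of 1.47 ± 0.08 (adjusted p = 3.52e-17).

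The other 2 genes of the Gramd1 family did not pass the test for cholesterol in any siRNA condition. Gramd1a (Aster-A; ENSMUSG00000001248, chr7:30829552-30855321, minus strand) had log2 changes between -0.11 and 0.06, with all 4 intervals of the fit inside -0.26 to 0.21. Gramd1c (Aster-C; ENSMUSG00000036292, chr16:43800713-43883708, minus strand) had changes between -0.56 and 0.33 with standard errors of 0.35 to 0.47, and its intervals together reached from -1.42 to 1.04, so changes within that range could not be told from 0 at its few counts. Osbp (ENSMUSG00000024687, chr19:11943305-11971476, plus strand) trades a phosphoinositide for sterol between the ER and the Golgi. It held 139, 145, 150.1 and 139 CPM in scramble cells with cholesterol and 125, 137, 134 and 132 CPM under control treatment. The groups did not overlap, but by a narrow margin, and the change was 0.12 ± 0.04 (adjusted p = 0.0136). With siNfe2l1 it was also 0.12 ± 0.04 (adjusted p = 0.0103), and it was 0.22 ± 0.04 with siAtf3 and 0.24 ± 0.04 with double silencing. For Osbp the call in scramble cells ended in 6 of 16 alternatives, with adjusted p of 0.0533 to 0.928, among them scaling by library totals (-0.0050) and the omission of scramble control library 1 (0.08) or scramble cholesterol library 3 (0.09). The siNfe2l1 call ended in 8 of 17, with adjusted p of 0.0642 to 0.4, among them library totals (0.04) and the omission of any of siNfe2l1 control libraries 1 and 4 and cholesterol libraries 2, 3 and 4.

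Of the genes of lysosomal release, Lipa and Npc1 rose. Lipa (ENSMUSG00000024781, chr19:34469718-34504874, minus strand) encodes lysosomal acid lipase, which splits cholesteryl esters and triglycerides. It held 223, 224, 235 and 217 CPM in scramble cells with cholesterol and 163, 167, 180.2 and 182 CPM under control treatment. All loaded libraries were above all control libraries, with a log2 change of 0.38 ± 0.05 (adjusted p = 5.18e-08). The changes were 0.19 with siNfe2l1, where the groups overlapped, 0.20 with siAtf3 and 0.20 with double silencing, each ± 0.05 and called.

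Npc1 (ENSMUSG00000024413, chr18:12322749-12369457, minus strand) encodes the membrane protein that exports sterol from late endosomes and lysosomes. In scramble cells it stood at 110.0, 122, 130.5 and 122 CPM with cholesterol and at 62.7, 66.7, 69.1 and 67.2 CPM under control treatment. The loaded libraries were far above the others, at 1.82-fold or 0.87 ± 0.06 on the log2 scale (adjusted p = 6.86e-15). The change was 0.74 ± 0.06 with siNfe2l1, 0.65 ± 0.06 with siAtf3 and 0.71 ± 0.06 with double silencing. Rmc1 lies on the opposite strand and shares 967 annotated bases with Npc1, and the strand setting of the counting is not given in the sources used here, so reads of that stretch cannot be told apart. Rmc1 itself rose by 0.29 ± 0.05 in scramble cells, and its total count was 46.0% of that of Npc1.

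Npc2 and Stard3 moved little with cholesterol. Npc2 (ENSMUSG00000021242, chr12:84801336-84819926, minus strand) hands sterol to Npc1 within the lysosome. Its log2 change was 0.08 ± 0.05 in scramble cells (95% interval -0.03 to 0.18, and -0.0016 without library 1 of the loaded group, which held 1858 CPM against 1488 to 1571 CPM in the other 3), -0.13 ± 0.05 with siNfe2l1 (adjusted p = 0.0358), -0.15 ± 0.05 with siAtf3 (adjusted p = 0.0137) and -0.11 ± 0.05 with double silencing. For Npc2 the siNfe2l1 call ended without siNfe2l1 cholesterol libraries 3 and 4 (-0.07, adjusted p = 0.342). The siAtf3 call ended without siAtf3 control library 3 (adjusted p = 0.0933) or any of siAtf3 cholesterol libraries 2, 3 and 4 (0.0547 to 0.0791). Stard3 (ENSMUSG00000018167, chr11:98249194-98271938, plus strand) is a late endosomal protein that carries sterol at contacts with the ER. Its changes lay between -0.07 and 0.06, with intervals inside -0.20 to 0.20.

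Soat1 (ENSMUSG00000026600, chr1:156252095-156301901, minus strand) encodes the ER acyltransferase that forms cholesteryl ester. It held 89.3, 86.4, 86.3 and 101 CPM in scramble cells with cholesterol and 67.4, 71.3, 65.3 and 70.7 CPM under control treatment. No loaded library overlapped the controls, and the log2 change was 0.40 ± 0.05 (adjusted p = 2.37e-08), or 1.32-fold. It was 0.49 with siNfe2l1, 0.36 with siAtf3 and 0.44 with double silencing, each ± 0.05. Scarb1 (ENSMUSG00000037936, chr5:125354151-125418158, minus strand) encodes the receptor through which cells take up sterol from high-density lipoprotein. It held 234, 227, 219.9 and 215 CPM in scramble cells with cholesterol and 253, 258, 252 and 239 CPM under control treatment, without overlap and with a log2 change of -0.16 ± 0.05 (adjusted p = 0.00327). Its changes with siNfe2l1, siAtf3 and double silencing were -0.09, -0.04 and -0.07 and did not pass the test. For Scarb1 the siNfe2l1 value did pass in 9 of 17 alternatives, with changes of -0.11 to -0.18, among them DESeq2 size factors, the DESeq2 Wald test, library totals, no filter and the omission of siNfe2l1 cholesterol library 1, 2 or 3 or siNfe2l1 control library 1 or 3. The siAtf3 and double values passed with library totals (-0.12, adjusted p = 0.0327, and -0.15, adjusted p = 0.00782). The difference of each from the change in scramble cells did not pass the test either. Cell type markers moved in the same scramble comparison. Of 11 adipocyte markers 10 rose and 1 fell, of 12 fibroblast markers 10 fell, and of 13 macrophage markers 12 fell, their sum being 160.8 to 185.6 CPM in cholesterol and 280 to 328.9 CPM under control treatment. Their part in the changes of the 10 genes was not tested.

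**Figure D2:**
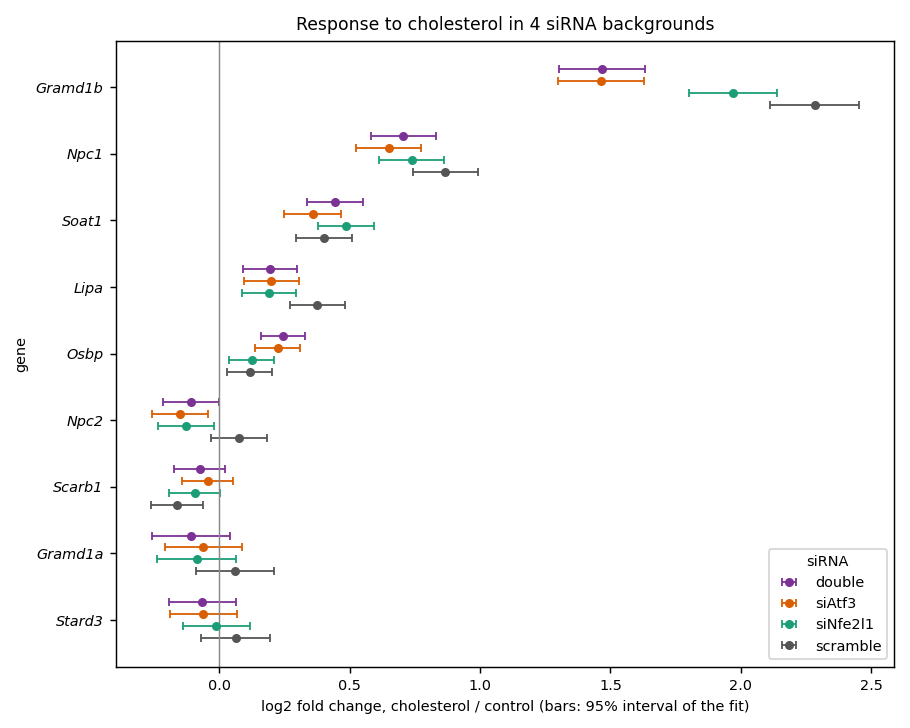
Log2 fold change with cholesterol relative to control treatment for 9 genes (Gramd1c, with few counts, is left out), in double silencing, siAtf3, siNfe2l1 and scramble cells from top to bottom within a gene. Points are estimates of the fit and bars their 95% intervals. Gramd1b is the one gene whose intervals with siAtf3 and double silencing lie wholly below that of scramble.

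Whether silencing altered the size of these changes was tested as the difference between 2 cholesterol effects. With siAtf3 this difference was called for 2 of the 10 genes, both lower, against 15.3% of all genes (6.21% higher and 9.13% lower). For Gramd1b the cholesterol effect was smaller by 0.82 ± 0.11 on the log2 scale than in scramble cells (difference -0.82, adjusted p = 1.2e-05). With double silencing Gramd1b was the 1 gene called, at -0.81 ± 0.11 (adjusted p = 2.43e-05), against 13.7% of all genes (6.52% higher and 7.21% lower). The median difference of the 10 genes was -0.15 with siAtf3 and -0.15 with double silencing, beside -0.01 for all genes in both. The 2 comparisons share the scramble libraries. Part of each difference lay in the control libraries and part in the loaded ones. Gramd1b was higher than in scramble under control treatment, by 0.38 ± 0.08 with siAtf3 (adjusted p = 0.000443) and 0.33 ± 0.08 with double silencing (adjusted p = 0.00285). In cholesterol it was lower than in scramble, at -0.44 ± 0.08 with siAtf3 (adjusted p = 1.11e-05) and -0.48 ± 0.08 with double silencing (adjusted p = 3.59e-06). Groups did not overlap in any of these 4 comparisons. All 4 of these calls, and both differences, held under every alternative run.

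Npc2 was the other gene called for siAtf3, at -0.23 ± 0.07 (adjusted p = 0.0341). For Npc2 that call ended in 17 of 24 alternatives, among them scaling by library totals (-0.18, adjusted p = 0.0609) and the omission of any 1 of scramble cholesterol libraries 1 and 3, siAtf3 cholesterol libraries 2, 3 and 4 and all 8 control libraries of both conditions (adjusted p of 0.0543 to 0.116). Without scramble cholesterol library 1 the Npc1 difference was called (-0.26, adjusted p = 0.0359). With siNfe2l1 none of the 10 differences was called by edgeR, DESeq2 or limma-voom, while 3 had an unadjusted p under 0.05. Over all genes 0.247% were called (0.206% higher and 0.0412% lower), and this share depended on the setting. It was 42 of 16984 genes in the main fit and 2 of 16322 with only the groups compared. With the DESeq2 Wald test it was 344 of 13031, and without the libraries numbered 1 it was 670 of 17024. The median of the 10 was -0.10, beside 0.01 for all genes. Gramd1b was among those 3, with a difference of -0.31 and an interval of -0.55 to -0.08 (adjusted p = 0.18). For Gramd1b it was -0.10 (adjusted p = 0.788) without siNfe2l1 cholesterol libraries 3 and 4, and -0.42 (adjusted p = 0.00974) without library 1 of that group, which makes the value depend on which libraries are counted.

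After silencing of Nfe2l1 2 of the 10 genes were called in each treatment. Under control treatment Soat1 and Npc2 rose and 0 fell, against 5.99% of all genes called (3.13% higher and 2.87% lower). In cholesterol Soat1 and Scarb1 rose and 0 fell, against 19.9% (11.3% higher and 8.59% lower). That last share depended on the setting. In the main fit 3382 of 16984 genes were called in cholesterol. With only the groups compared it was 645 of 15399, and 1206 of 17553 without siNfe2l1 cholesterol libraries 3 and 4. The median log2 change of the 10 genes was 0.18 under control treatment and 0.01 in cholesterol, beside 0.0047 and 0.02 for all genes. At an unadjusted p under 0.05, 6 genes were higher and 0 lower under control treatment, and 3 were higher and 1, Npc1, lower in cholesterol, and neither DESeq2 nor limma-voom called a lower gene. Without scramble cholesterol library 1 Npc1 was called lower in cholesterol (-0.19, adjusted p = 0.0268). Soat1 held 78.8, 76.0, 86.1 and 77.9 CPM with siNfe2l1 under control treatment, against the scramble values above. All 4 libraries lay above the highest scramble library. The log2 change was 0.21 ± 0.05 (adjusted p = 0.00773), and for Soat1 it was 0.18 (adjusted p = 0.0515) without siNfe2l1 control library 3. In cholesterol Soat1 stood at 107, 117, 108 and 114 CPM with siNfe2l1, again above every scramble library, with a change of 0.30 ± 0.05 (adjusted p = 9.24e-05). Npc2 held 1721, 1656, 1755 and 1842 CPM with siNfe2l1 and 1511, 1534, 1509 and 1540.1 CPM with scramble under control treatment, a change of 0.19 ± 0.05 (adjusted p = 0.0168). In cholesterol the change of Npc2 was -0.01, with an interval of -0.11 to 0.10. Scarb1 rose by 0.13 ± 0.05 in cholesterol (adjusted p = 0.0406). For Scarb1 that call ended in 11 of 17 alternatives, with adjusted p of 0.0517 to 0.23, among them DESeq2 size factors (0.12) and the omission of any 1 siNfe2l1 cholesterol library or of scramble cholesterol library 2, 3 or 4.

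Macrophage markers moved with siNfe2l1 too. Of 13 such markers 12 rose under control treatment and all 13 in cholesterol. Their summed level was 408.3 to 541.5 CPM with siNfe2l1 and 280 to 328.9 CPM with scramble under control treatment, and 283.6 to 360.8 CPM with siNfe2l1 and 160.8 to 185.6 CPM with scramble in cholesterol. No marker of the list was at 0 in any library. Other cell types moved as well. Under control treatment 3 of 12 fibroblast markers rose, and of 11 adipocyte markers 2 rose and 1 fell. In cholesterol 5 of 12 fibroblast and 5 of 8 endothelial markers rose, and of 11 adipocyte markers 1 rose and 2 fell. The part of these markers in the changes of Soat1, Npc2 and Scarb1 was not tested.

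Silencing of Atf3 moved most of the 10 genes, and in both directions. Under control treatment Gramd1a, Lipa, Gramd1b and Stard3 rose and Scarb1, Npc2 and Soat1 fell, 7 of 10 against 36.3% of all genes (18.1% higher and 18.2% lower). In cholesterol Gramd1a, Lipa and Stard3 rose and Npc2, Gramd1b, Npc1, Scarb1 and Soat1 fell, 8 of 10 against 50.4% (23% higher and 27.4% lower). The median log2 change of the 10 genes was 0.10 under control treatment and -0.08 in cholesterol, beside 0.01 and -0.02 for all genes. Scaling matters for these comparisons: with library totals in place of TMM the median of all genes was 0.15 under control treatment and 0.17 in cholesterol.

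Gramd1a held 116, 120.1, 122 and 115 CPM with siAtf3 and 83.4, 82.0, 78.9 and 76.4 CPM with scramble under control treatment. The groups were far apart, at 0.56 ± 0.07 (adjusted p = 1.03e-07), and in cholesterol the change was 0.44 ± 0.07 (adjusted p = 4.71e-06). Lipa held 233, 229.7, 226 and 236 CPM with siAtf3 under control treatment, against 163 to 182 CPM with scramble, a change of 0.42 ± 0.05 (adjusted p = 2.57e-08). In cholesterol Lipa differed by 0.24 ± 0.05 (adjusted p = 0.000137). Its level with siAtf3 alone thus reached, without loading, that of scramble cells with cholesterol, 217 to 235 CPM. Stard3 stood at 35.6, 32.7, 37.6 and 36.2 CPM with siAtf3 and 27.0, 28.0, 29.7 and 32.4 CPM with scramble under control treatment, a narrow but complete separation of 0.28 ± 0.06 (adjusted p = 0.000492). In cholesterol the change of Stard3 was 0.15 ± 0.06 (adjusted p = 0.0396), and for Stard3 this call ended with no filter (adjusted p = 0.0524), without scramble cholesterol library 2 (0.0548) and without siAtf3 cholesterol library 4 (0.084).

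Scarb1 held 195, 181, 208 and 194 CPM with siAtf3 and 239 to 258 CPM with scramble under control treatment. It was lower in every siAtf3 library, with a change of -0.36 ± 0.05 (adjusted p = 1.01e-07), and in cholesterol the change was -0.25 ± 0.05 (adjusted p = 4.27e-05). Npc2 held 1292, 1249, 1347 and 1293 CPM with siAtf3 under control treatment, below all scramble libraries, with a change of -0.23 ± 0.05 (adjusted p = 0.000458). In cholesterol Npc2 stood at 1229, 1129, 1151 and 1159.7 CPM with siAtf3 and at 1858, 1488, 1571 and 1505 CPM with scramble. The siAtf3 values were its lowest of the study, with a change of -0.46 ± 0.05 (adjusted p = 3.67e-09), and for Npc2 it was -0.38 without scramble library 1. Soat1 fell by 0.15 ± 0.05 under control treatment (adjusted p = 0.0248), where the groups overlapped, and by 0.19 ± 0.05 in cholesterol (adjusted p = 0.00221). Npc1 did not pass the test under control treatment (-0.10 ± 0.06, adjusted p = 0.213) and fell by 0.32 ± 0.06 in cholesterol (adjusted p = 3.31e-05). Npc1 held 98.5, 98.5, 96.0 and 96.1 CPM with siAtf3 in cholesterol, below each scramble library. Rmc1, which shares bases with it, fell by 0.18 ± 0.05 in the same comparison.

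Part of the calls for lower genes with siAtf3 ended with library totals. Under control treatment this held for Npc2 (-0.10, adjusted p = 0.0813) and Soat1 (-0.01, adjusted p = 0.891), and in cholesterol for Soat1 (-0.01, adjusted p = 0.908), Npc1 (-0.13, adjusted p = 0.0527) and Scarb1 (-0.06, adjusted p = 0.289). Rmc1 turned to 0.01 in cholesterol under that scaling. Soat1 also lost its call under control treatment without scramble control library 2 or 4 or siAtf3 control library 2 or 4 (adjusted p of 0.0563 to 0.0809), and in cholesterol without scramble cholesterol library 4 (0.0691). Fibroblast markers moved with siAtf3: their summed level was 16920 to 17630 CPM with siAtf3 and 24040 to 25390 CPM with scramble under control treatment, and 8 of 12 fell and 1 rose. In cholesterol it was 4062 to 4427 CPM with siAtf3 and 7461 to 8477 CPM with scramble, and 9 of 12 fell. Of 13 macrophage markers 6 rose and 1 fell under control treatment, where they summed to 392.9 to 488 CPM with siAtf3 and 280 to 328.9 CPM with scramble. In cholesterol 2 rose and 3 fell, with sums of 181.5 to 221.6 CPM with siAtf3 and 160.8 to 185.6 CPM with scramble. Of 11 adipocyte markers 5 fell under control treatment and 8 in cholesterol, and of 8 endothelial markers 4 and 6 fell. The endothelial sum in cholesterol was 308.2 to 345.8 CPM with siAtf3 and 434.3 to 521.3 CPM with scramble. The part of these cells in the results was not tested.

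**Figure D3:**
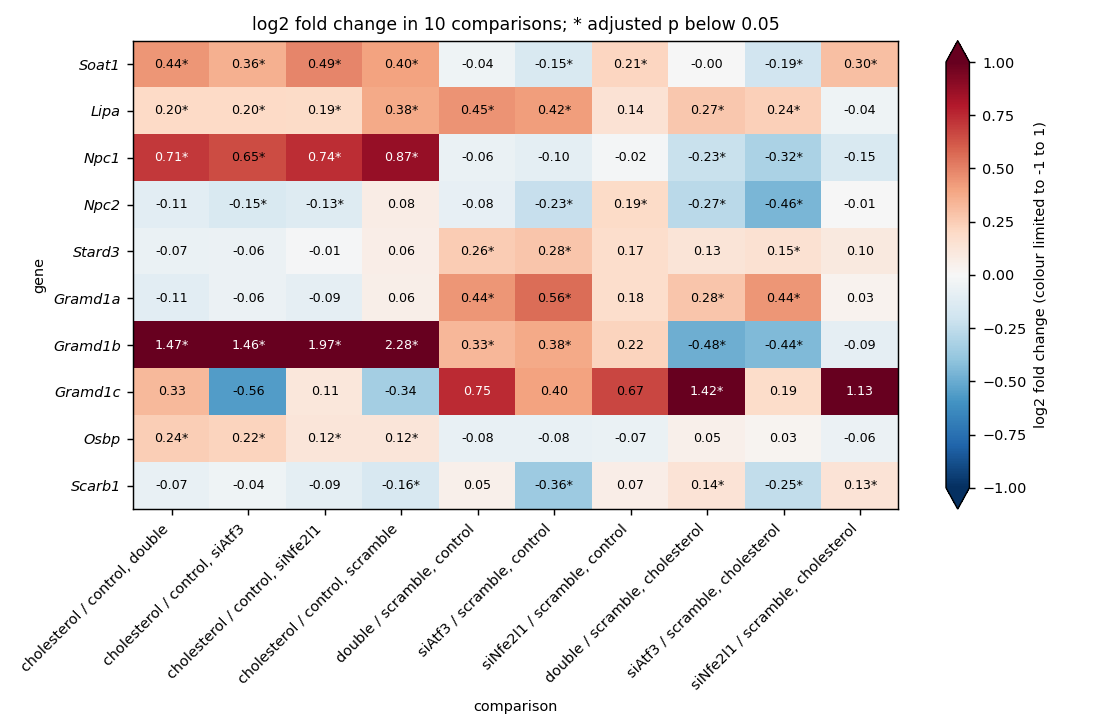
Log2 fold change of the 10 genes (rows) in 10 comparisons (columns), the 4 of cholesterol with control treatment at left, then the silenced groups with scramble under control treatment and in cholesterol; colour runs from blue (lower) over white to red (higher) and is limited to -1 to 1, and a star marks an adjusted p below 0.05. Gramd1a and Lipa are higher and Npc2 and Scarb1 lower with siAtf3 in both treatments, whereas Gramd1b is higher under control treatment (0.38) and lower in cholesterol (-0.44).

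Double silencing was set against scramble and against each single siRNA. Against scramble, Lipa, Gramd1a, Gramd1b and Stard3 rose and 0 fell under control treatment (27.2% of all genes called, 12.9% higher and 14.3% lower), with log2 changes of 0.45, 0.44, 0.33 and 0.26. No member was lower there at an unadjusted p under 0.05 or by DESeq2 or limma-voom. In cholesterol Gramd1c, Gramd1a, Lipa and Scarb1 rose and Gramd1b, Npc2 and Npc1 fell (44.7% of all genes, 20.8% higher and 23.9% lower). The median of the 10 genes was 0.15 under control treatment and 0.09 in cholesterol, beside 0.01 and -0.01 for all genes. The changes were 0.28 for Gramd1a, 0.27 for Lipa, 0.14 for Scarb1, -0.48 for Gramd1b, -0.27 for Npc2 and -0.23 for Npc1. The Npc1 call ended with library totals (-0.08, adjusted p = 0.292). Gramd1c held 0.926, 0.748, 0.525 and 0.499 CPM with double silencing and 0.281, 0.336, 0.2997 and 0.0829 CPM with scramble in cholesterol. The groups did not overlap, at 1.42 ± 0.41 on the log2 scale (adjusted p = 0.00507), but these values stand for 14 to 24 counts per library with double silencing and 2 to 8 with scramble. Macrophage markers were higher here too: their sum was 592 to 638.1 CPM with double silencing and 280 to 328.9 CPM with scramble under control treatment, and 262.8 to 294 CPM with double silencing and 160.8 to 185.6 CPM with scramble in cholesterol. Of the 13 markers 11 rose under control treatment and 7 in cholesterol. Fibroblast markers were lower: 7 of 12 fell under control treatment (18830 to 19780 CPM with double silencing and 24040 to 25390 CPM with scramble), and 8 fell and 1 rose in cholesterol (4775 to 5544 CPM and 7461 to 8477 CPM). Of 11 adipocyte markers 3 fell under control treatment and 7 in cholesterol, and of 8 endothelial markers 2 and 4 fell. Their part was not tested.

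Against siNfe2l1 alone, Lipa and Gramd1a rose and Soat1 and Npc2 fell under control treatment, 4 of 10 against 26.8% of all genes (12.3% higher and 14.5% lower). In cholesterol Lipa, Gramd1a and Osbp rose and Gramd1b, Soat1 and Npc2 fell, 6 of 10 against 36.6% (15.7% higher and 20.9% lower). The medians were 0.03 and 0.01, beside 0.0094 and -0.03 for all genes. Soat1, raised by siNfe2l1 alone, was lower with both siRNAs by 0.26 ± 0.05 under control treatment (difference -0.26, adjusted p = 0.000232) and by 0.30 ± 0.05 in cholesterol (difference -0.30, adjusted p = 1.56e-05). Without siNfe2l1 cholesterol libraries 3 and 4 the calls of Gramd1a (0.10, adjusted p = 0.303) and Osbp (0.12, adjusted p = 0.0758) ended, and Npc1 was called lower (-0.21, adjusted p = 0.00486). The call of Osbp, 0.11 ± 0.04 (adjusted p = 0.0354), also ended with no filter (adjusted p = 0.0615) and without the libraries numbered 1 (adjusted p = 0.0865). Nfe2l1 itself was less lowered with both siRNAs, averaging 114 CPM with double silencing and 73.8 CPM with siNfe2l1 under control treatment (log2 difference 0.63 ± 0.07, adjusted p = 6.11e-09), and 157 CPM with double silencing and 120.0 CPM with siNfe2l1 in cholesterol (0.39 ± 0.07, adjusted p = 2.26e-05). Cell type markers moved as well. Under control treatment 9 of 12 fibroblast and 3 of 8 endothelial markers fell, 1 of 13 macrophage markers rose and 1 fell, and 4 of 11 adipocyte markers rose and 5 fell. In cholesterol 11 of 13 macrophage, 11 of 12 fibroblast, 7 of 8 endothelial and 6 of 11 adipocyte markers fell and 1 adipocyte marker rose. There the macrophage sum was 262.8 to 294 CPM with double silencing and 283.6 to 360.8 CPM with siNfe2l1, and the fibroblast sum was 4775 to 5544 CPM with double silencing and 9226 to 9811 CPM with siNfe2l1. The part of the Nfe2l1 levels and of these markers in the results was not tested.

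Against siAtf3 alone, a comparison added after values were seen, Scarb1 was the 1 gene called under control treatment, against 5.65% of all genes (3.71% higher and 1.94% lower), while DESeq2 called 2 and limma-voom 1. It held 259, 248, 259.7 and 269 CPM with double silencing and 195, 181, 208 and 194 CPM with siAtf3. The lowest double library stood above the highest siAtf3 library, with a change of 0.41 ± 0.05 (adjusted p = 2.02e-07). In cholesterol Scarb1 held 246, 238, 259 and 242 CPM with double silencing and 175, 198, 194 and 187 CPM with siAtf3, again without overlap, at 0.38 ± 0.05 (adjusted p = 7.89e-07). Both Scarb1 calls held under every alternative run. Against scramble under control treatment Scarb1 was at 0.05 ± 0.05 with both siRNAs (95% interval -0.05 to 0.15), and at 0.15 and called with library totals (adjusted p = 0.0131). Atf3 mRNA averaged 15.3 CPM with double silencing and 10.1 CPM with siAtf3 under control treatment, and 50.8 CPM and 40.9 CPM in cholesterol. Under control treatment 7 of 13 macrophage, 6 of 11 adipocyte and 4 of 12 fibroblast markers rose, and in cholesterol 8 macrophage, 2 adipocyte, 7 fibroblast and 3 of 8 endothelial markers rose. The macrophage sum was 592 to 638.1 CPM with double silencing and 392.9 to 488 CPM with siAtf3 under control treatment, and 262.8 to 294 CPM with double silencing and 181.5 to 221.6 CPM with siAtf3 in cholesterol. The part of the Atf3 levels and of these markers in the results was not tested. In cholesterol Soat1 (0.19), Npc2 (0.19) and Gramd1c (1.23) were called higher as well, 4 of 10 against 8.11% (5.4% higher and 2.71% lower). The medians of the 10 genes were 0.03 and 0.06, beside -0.0011 and 0.01 for all genes. Those 3 calls rest on narrow margins. The call of Soat1 ended in 8 of 16 alternatives. They were library totals, no filter and omission of double library 1, 3 or 4 or siAtf3 library 2, 3 or 4 of cholesterol (adjusted p of 0.0571 to 0.128 for the omissions). That of Npc2 ended in 4 of 16, without double library 3 or siAtf3 library 2, 3 or 4 (0.0532 to 0.0816). That of Gramd1c ended in 10 of 15. Among them were library totals, the replicate block, limma-voom and omission of all libraries numbered 1. It also ended without double library 1, 2 or 3 or siAtf3 library 1, 2 or 4 (0.0503 to 0.17).

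A further list of 34 genes of the same route was described by counts, namely ester forming and splitting enzymes, late endosomal and lysosomal proteins, relatives of Osbp, soluble carriers, and ER anchors with enzymes of the phosphoinositide PI4P. All 34 were tested. With cholesterol in scramble cells 17 rose and 6 fell, against 65.2% of all genes called (32.9% higher and 32.3% lower). The median of the 34 was 0.09 beside 0.0002 for all genes. Soat2, the second ester-forming acyltransferase, held 8.98 ± 0.64 CPM with cholesterol and 2.16 ± 0.45 CPM under control treatment (SD, n = 4 each), a log2 change of 2.05 ± 0.15 (edgeR, adjusted p = 1.92e-14). Stard4, a soluble sterol carrier, held 11.8 ± 0.91 CPM with cholesterol and 53.8 ± 1.64 CPM under control treatment, a change of -2.18 ± 0.07. Lipe, the hormone-sensitive lipase that also splits cholesteryl ester, rose by 0.91 ± 0.07, and the carboxylesterase gene Ces1f by 0.90 ± 0.06. Vapa, the ER anchor to which Osbp binds, rose by 0.71 ± 0.05. Among 10 Osbp relatives 5 rose and 1 fell. Of 8 late endosomal and lysosomal genes 3 rose and 3 fell. Library totals made the count over the 34 genes 14 higher and 10 lower. With siNfe2l1 17 of the 34 rose and 6 fell, against 60.1% of all genes called (31.1% higher and 29% lower). With siAtf3 17 rose and 7 fell, against 58.1% (29.4% higher and 28.6% lower). With double silencing 16 rose and 8 fell, against 58.7% (29.8% higher and 28.9% lower). Under library totals these counts of the 34 genes were 14 and 8, 13 and 10, and 13 and 9.

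**Figure D4:**
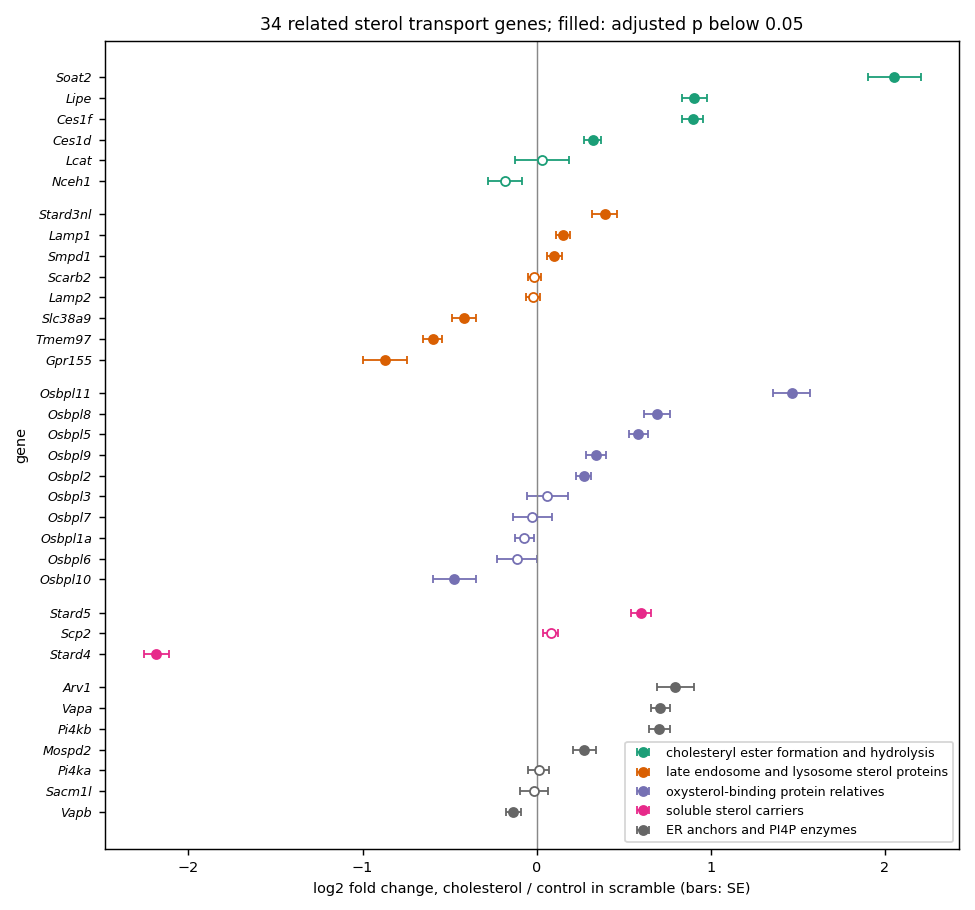
Log2 fold change with cholesterol relative to control treatment in scramble cells for 34 further genes of the route, grouped and coloured by role and sorted within a group. Points are estimates and bars their standard error, and filled points have an adjusted p below 0.05. Soat2 at 2.05 and Stard4 at -2.18 are the outermost points.

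Silencing of Nfe2l1 left most of these 34 genes uncalled. Under control treatment 3 were higher and 1 lower, against 5.99% of all genes called (3.13% higher and 2.87% lower). In cholesterol 3 were higher and 5 lower, against 19.9% (11.3% higher and 8.59% lower), a share that depended on the setting as given above. The medians of the 34 were -0.03 and -0.0035. Scarb2, a lysosomal membrane protein, fell by 0.36 ± 0.04 under control treatment (adjusted p = 3.44e-08) and by 0.37 ± 0.04 in cholesterol (adjusted p = 1.07e-08). Nceh1, a neutral cholesteryl ester hydrolase, rose by 0.48 ± 0.09 under control treatment (adjusted p = 0.000619) and by 0.54 ± 0.10 in cholesterol (adjusted p = 0.00012). With siAtf3 7 rose and 11 fell under control treatment, against 36.3% of all genes called (18.1% higher and 18.2% lower). In cholesterol 7 rose and 16 fell, against 50.4% (23% higher and 27.4% lower). The medians of the 34 were -0.08 and -0.14 beside 0.01 and -0.02 for all genes. Under library totals the counts of the 34 genes were 12 higher and 6 lower, and 13 higher and 10 lower, so the balance of directions depends on the scaling. Tmem97, a sterol-regulated protein that binds Npc1, held 17.3 ± 0.79 CPM with siAtf3 and 42.8 ± 1.67 CPM with scramble under control treatment, a change of -1.30 ± 0.05 (adjusted p = 2.44e-20). The lysosomal membrane genes Lamp1 and Lamp2 fell by 0.31 ± 0.04 and 0.34 ± 0.04 there. Pi4kb, which makes PI4P at the Golgi, fell by 0.41 ± 0.06 under control treatment and by 0.71 ± 0.06 in cholesterol. The cholesterol effect on Stard4 was weaker with siAtf3 than with scramble, by a difference of 0.81 ± 0.10 (adjusted p = 1.28e-06), and with double silencing by 0.56 ± 0.10. With double silencing against scramble, 4 of the 34 rose and 8 fell under control treatment. Over all genes 27.2% were called there (12.9% higher and 14.3% lower). In cholesterol 7 of the 34 rose and 16 fell, against 44.7% of all genes (20.8% higher and 23.9% lower). The counts of the 34 under library totals were 11 higher and 5 lower, and 11 higher and 7 lower. These named calls for Scarb2, Nceh1, Tmem97, Lamp1, Lamp2 and Stard4 held under every alternative run.

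Over the 32 libraries the genes with the most similar log2 CPM, of 10894 protein-coding genes at a sufficient level, were found by Pearson's r. The points share the split by cholesterol and the 8 groups, so r describes the shape across groups. The closest to Gramd1b were Cobll1, Tmco4 and Gdf15, all at 0.99. Npc1 was closest to Igfbp5, Ern1 and Eea1, also at 0.99. Soat1 was closest to Csf2rb (0.95), Ptprj and Mapre2, Npc2 to Cd63 (0.94), Arpc1b and Tagln2, and Lipa to Zfp422 (0.94), Tdp2 and Bmt2. Stard3 and Gramd1c had no gene above 0.79 and 0.67. Between members, the pair with the highest r was Npc1 with Gramd1b, at 0.97 over all libraries. It was also highest, at 0.68, after each library was taken relative to its group mean. The other pairs then ran from -0.47 (Soat1 with Scarb1) to 0.64 (Gramd1a with Gramd1b). Within siNfe2l1 with cholesterol both Npc1 and Gramd1b were lowest in libraries 3 and 4, and the part of that group in r was not tested.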

How the data were processed

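Poly(A) RNA-seq of 32 libraries in 8 groups was used as the raw gene counts that the authors deposited for 56748 genes. Per the submitters' processing notes, the tools were fastp, HISAT2 2.0.5 and featureCounts 1.5.0-p3 with build GRCm39. The annotation release and the settings for strand and multi-mapping are not given in the sources used here. Groups were taken from the sample labels. Genes were filtered with filterByExpr (minimum count 10, minimum total 15), which kept 16984, and library sizes were scaled by TMM (factors 0.886 to 1.1). One robust edgeR 4.0.16 quasi-likelihood fit in R 4.3.3 held 8 group means with 24 residual degrees of freedom. P-values were adjusted by Benjamini-Hochberg over all genes tested and called at 0.05. No within-group pair of libraries agreed within sampling noise.

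The 10 genes and all gene lists were chosen with earlier results of these data known, so no list is independent support. All 10 genes are named in every comparison. Of the 34 further genes of the route, up to 5 called genes with the smallest adjusted p per comparison could be named, and the 3 genes with the highest Pearson r were named for likeness. Markers are given by counts and sums. The comparisons of double silencing with siAtf3 were added after values were seen. Alternatives were DESeq2 1.42.0 size factors or library totals in place of TMM, no filter, a replicate block, only the groups compared, the DESeq2 Wald test, limma-voom (limma 3.58.1), leaving out each library in turn and leaving out all libraries numbered 1. Leaving out siNfe2l1 cholesterol libraries 3 and 4 was chosen after seeing the data. P-values and SE of the main fit rest on the spread of libraries within groups, estimated once per gene over all 8 groups. They therefore do not follow the spread of the compared groups alone.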

Additional observations from a re-analysis of the deposited data

Results flagged for a closer look

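Of 80 groups of 4 libraries, one for each gene and group, 2 held a library far from the other 3, and chance flags about 1 in 20. Npc1 stood at 56.48 CPM in library 3 of siAtf3 under control treatment, below the other 3 at 63.3 to 64.3 CPM. Osbp stood at 116.8 CPM in library 4 of double silencing under control treatment, below the other 3 at 127.9 to 129.2 CPM.

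The effect of cholesterol differed between siRNA conditions by the test of the difference itself, for Gramd1b under all 24 alternatives run and for Npc2 under 7 of 24. For Gramd1b it was smaller than with scramble in both, at a difference of -0.8176 on the log2 scale with siAtf3 and -0.8133 with double silencing. Loaded Gramd1b libraries were lower and control libraries higher than those of scramble in both silenced conditions. For Npc2 the difference with siAtf3 was -0.2255, a call that ended in 17 of 24 alternatives.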

How the results depend on the processing

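Of 170 results for the 10 genes, 71 were called, and the totals under the alternatives that keep all libraries were 68 to 75. Under library totals 11 calls ended and 15 were gained. That scaling moved the median of all genes to -0.12 for cholesterol in scramble cells, 0.11 for double silencing under control treatment and 0.14 in cholesterol, and 0.15 and 0.17 for siAtf3. The share of higher genes among all calls was then 38.9% for cholesterol in scramble cells (main 50.4%), 76% and 71.2% for siAtf3 under control treatment and in cholesterol (main 49.8% and 45.6%), 74.8% and 72.5% for double silencing (main 47.5% and 46.6%), 72.5% for siNfe2l1 in cholesterol (main 56.9%), 73.2% and 66.2% for double silencing against siNfe2l1 (main 45.9% and 43%), 40.1% and 45.5% against siAtf3 (main 65.6% and 66.5%), and 51.8% and 60% for the difference in cholesterol effect with siAtf3 and double silencing (main 40.5% and 47.5%).

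Among results called under either scaling, signs turned under library totals for Osbp with cholesterol in scramble cells (-0.0050), Soat1 with double silencing in cholesterol (0.15, called) and Rmc1 in cholesterol with siAtf3 (0.0105) and double silencing (0.0247). Signs of uncalled values near 0 turned too, such as those of Npc2 (-0.05), Stard3 (-0.06) and Gramd1a (-0.06) with cholesterol in scramble cells, Npc1 (0.04) and Osbp (0.06) with siAtf3 under control treatment and Soat1 (0.06) with double silencing under control treatment. The number of the 10 genes called moved by over 1.5 times in these cases, and the cause was not tested. It was 8 under library totals for cholesterol with double silencing (main 5), 4 with only the groups compared for siNfe2l1 under control treatment (main 2), and 1 for siNfe2l1 in cholesterol (main 2) with DESeq2 size factors, only the groups compared or without libraries 3 and 4. It was 1 for the siAtf3 difference (main 2) with library totals, no filter, only the groups compared or without libraries numbered 1, and 2 for the double difference (main 1) with library totals. Against siAtf3 it was 2 under control treatment (main 1) with the Wald test, no filter, only the groups compared or without libraries numbered 1, and 2 in cholesterol (main 4) with library totals.

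Leaving out 1 library gave 5 to 8 calls for cholesterol with siNfe2l1, 1 to 3 for siNfe2l1 in either treatment, 0 to 2 for its difference, 1 to 2 for the differences with siAtf3 and double silencing, and 1 to 3 for double silencing against siAtf3 in cholesterol. Same-numbered libraries of different groups had deviations from their group means correlated at -0.299 to 0.550, with a mean of 0.046. Libraries of different number had a mean of -0.013, and 12 of 32 correlated best with their own number. Library 1 of each loaded group was highest of its group on the first principal component. It lay at 43.59 with scramble, 40.48 with siNfe2l1, 35.24 with siAtf3 and 33.71 with double silencing. Whether the replicate numbers pair the libraries is not given in the labels and is not settled by these values. With a replicate block 70 calls were made, and the Gramd1c call of double silencing against siAtf3 in cholesterol ended (1.22, adjusted p = 0.0507). Counts per library limit Gramd1c, at 2 to 24.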
